A study of Mus musculus with 35 samples.

Results

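Liver RNA of mice labelled as lacking E2f8 was compared with that of wild-type mice at 3 weeks of age. The comparison used 7 of the 35 Affymetrix arrays of the series, the 4 titled as E2f8 knockout and the 3 titled as wild type at that age, and every one of 18193 measured genes, with the brightest probe set on average taken where a gene had several. The labelled E2f8 knockouts were FVB mice with the genotype Albumin-Cre E2f8loxp/loxp, in which the Albumin promoter drives Cre recombinase in hepatocytes, so that other liver cells keep the floxed gene. The wild-type controls were FVB mice, and their labels do not say whether they carried Cre or loxP sites. The E2f7 knockouts (Albumin-Cre with E2f7loxp/loxp) and the E2f7/E2f8 double knockouts (Albumin-Cre with both floxed genes) of the same age, with 4 arrays each, completed the 15 arrays from which the spread of each gene was estimated. At 2 months the series held 4 arrays of the same E2f8 genotype and 5 of wild type, which share no array with the comparison at 3 weeks. The labels do not state that each array came from a separate animal, so the p-values measure the spread between these samples, which may be technical.

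E2f8 and its close relative E2f7 are the atypical members of the E2F family of transcription factors: they bind E2F sites with a pair of DNA-binding domains of their own, without a dimerization partner, and act mainly as repressors of genes for DNA replication and the cell cycle. Their own promoters are E2F targets. In mouse liver they are known for promoting hepatocyte polyploidization, which takes place around weaning. The canonical E2Fs, E2f1 to E2f3, activate many of the same genes.

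All values are log2 RMA signals, and levels of different probe sets are not compared with each other. Across genes, arrays of the same group correlated with an r of 0.9915 to 0.9972 among the labelled knockouts and 0.9919 to 0.9944 among the wild types. Wild-type replicate 3 lay at the far end of the first 2 principal components of the 15 arrays, at -18.7 and -22.1. It was lower than the other wild types in genes with high expression in male liver, with Hsd3b5, a steroid dehydrogenase, at 9.04, 9.64 and 6.52 in wild-type replicates 1 to 3. The labelled knockouts also split: replicates 1 and 2 differed from 3 and 4 in clock-controlled genes and in Cyp2b9, a xenobiotic cytochrome P450 that read 9.11, 9.93, 3.17 and 3.06 in knockout replicates 1 to 4. The excess of 3′ over 5′ signal in control transcripts of 2 genes, a sign of RNA quality, was 1.135 ± 0.108 (SD, n = 4) in the labelled knockouts and 1.135 ± 0.055 (SD, n = 3) in wild type (log2 units, two-sided exact permutation p = 1.0, with 0.0286 the smallest p possible).

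The targeted gene itself read higher, not lower, in the arrays labelled E2f8 knockout. E2f8 was at 9.29, 8.91, 8.85 and 8.75 in knockout replicates 1 to 4 and at 7.79, 7.21 and 6.45 in wild-type replicates 1 to 3. The groups did not overlap, and the difference of 1.80 (SE 0.30, limma adjusted p = 0.00967) is a 3.49-fold higher signal. Its second probe set gave a difference of 1.34 that did not pass the test over all probe sets (SE 0.37, limma adjusted p = 0.166), with knockout replicate 2 at 5.57, below 2 of the wild-type arrays. The E2f7/E2f8 double knockouts, which carry the same floxed E2f8, differed from wild type by 1.58, and the E2f7 knockouts by 0.57. The labels do not say which part of E2f8 was deleted or whether these probe sets lie in it, so the signal does not check the deletion. The series' design text states that each sample was genotyped by PCR. The arrays are therefore called by their labels.

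Gm2788, a noncoding RNA gene whose span overlaps that of E2f8 by 774 bases, had the smallest adjusted p of the comparison. Its signal was 5.83, 5.60, 5.47 and 5.93 in the labelled knockouts and 9.60, 9.75 and 9.0 in wild type. It fell by 3.74 (SE 0.18, limma adjusted p = 6.64e-09), a 13.4-fold lower signal. The E2f7/E2f8 double knockouts lay at 5.65 to 5.98 and the E2f7 knockouts at 9.26 or above, so low Gm2788 signal went with the floxed E2f8 label on all 15 arrays. Of the other family members, E2f7 differed by 0.34 (SE 0.12, limma adjusted p = 0.208) and E2f1 to E2f6 by -0.06 to 0.24, and none was called. Of 13 measured genes of the E2F and pocket protein family, 9 lay above 0 with a median of 0.11.

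The sequences before the start sites of E2f8 and of 3 other called genes are shown because the atypical E2Fs act through E2F sites near promoters. These 3 were picked and do not stand for the called genes as a whole, whose share with a core is given below. Each run is the 250 bases before the start site, 5′ to 3′ on the gene's strand, from RefSeq on GRCm38.p6, and capitals mark a match to an E2F core. Searched were the core TTCCCGC, the core TTGGCGC, the core TTCGCGC and the core TTGCCGC on both strands, and matches could overlap. For E2f8 the run is chr7:48881597-48881846 on the minus strand and lies inside Gm2788. For Angptl8 it is chr9:21835260-21835509 on the plus strand, for the first start of Tfrc chr16:32608646-32608895 on the plus strand and for Pcsk6 chr7:65861886-65862135 on the plus strand.
E2f8: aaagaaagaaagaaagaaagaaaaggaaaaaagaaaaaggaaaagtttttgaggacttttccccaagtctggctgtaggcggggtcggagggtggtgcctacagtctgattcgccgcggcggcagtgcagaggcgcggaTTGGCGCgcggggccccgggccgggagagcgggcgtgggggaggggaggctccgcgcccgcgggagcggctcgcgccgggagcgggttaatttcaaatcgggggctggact
Angptl8: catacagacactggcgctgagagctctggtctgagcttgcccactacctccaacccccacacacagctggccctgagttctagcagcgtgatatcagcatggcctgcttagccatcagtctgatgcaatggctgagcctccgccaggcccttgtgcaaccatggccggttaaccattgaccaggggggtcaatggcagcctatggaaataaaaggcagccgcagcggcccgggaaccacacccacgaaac
Tfrc: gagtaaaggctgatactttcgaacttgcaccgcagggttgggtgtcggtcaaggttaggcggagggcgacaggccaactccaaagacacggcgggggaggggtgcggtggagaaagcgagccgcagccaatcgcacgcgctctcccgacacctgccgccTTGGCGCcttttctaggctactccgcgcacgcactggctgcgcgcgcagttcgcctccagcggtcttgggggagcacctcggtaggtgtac
Pcsk6: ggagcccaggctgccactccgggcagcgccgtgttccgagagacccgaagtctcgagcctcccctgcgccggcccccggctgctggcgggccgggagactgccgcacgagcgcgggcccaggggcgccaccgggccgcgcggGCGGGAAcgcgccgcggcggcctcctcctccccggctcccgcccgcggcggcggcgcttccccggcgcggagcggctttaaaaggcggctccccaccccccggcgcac
Counted from the start site, the core of E2f8 began at position -111 and that of Tfrc at -91. A second start of Tfrc held no match in its own 250 bases. Pcsk6 held the reverse complement of TTCCCGC at -108, and Angptl8 held no match in this window. A match describes letters only. Of 14452 measured genes with such a sequence, 13.3% held a core, against 5 of 44 called higher (11.4%) and 8 of 57 called lower (14.0%). The share was 43.9% (18 of 41) in the list of DNA replication and G1/S genes and 17.6% (9 of 51) in the list of mitosis genes, and none of the members of either list was called.

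**Figure D1:**
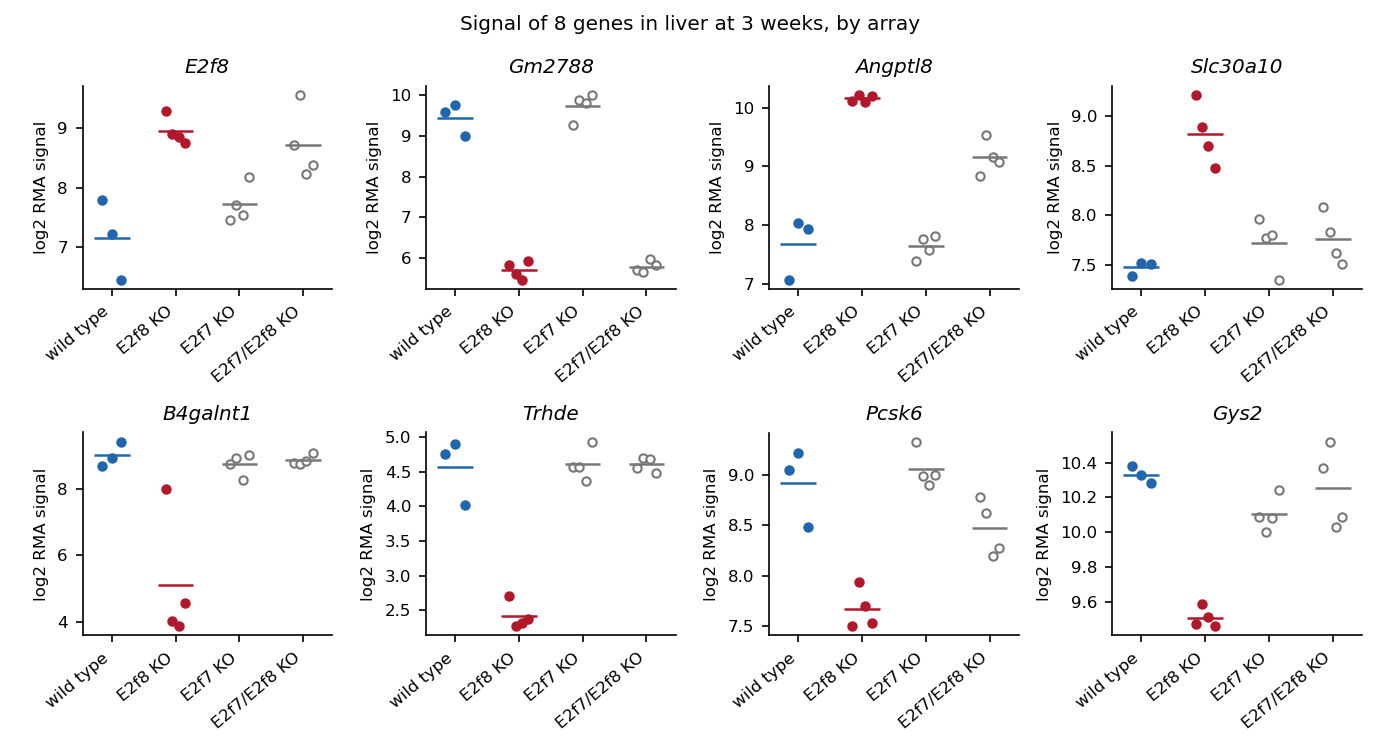
Log2 RMA signal (y axis) of 8 genes on each array at 3 weeks, by labelled genotype (x axis), with a point per array and a line at each group mean. E2f8 and Gm2788 separate the arrays with floxed E2f8 from the rest, while B4galnt1, Trhde, Slc30a10 and Gys2 separate the labelled E2f8 knockouts from all other groups except for B4galnt1 in knockout replicate 1, which at 7.99 lies near the others.

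Across the genome, 125 of 18193 genes (0.687%) differed between the labelled E2f8 knockouts and wild type at a limma adjusted p under 0.05. Of these, 54 (0.297%) were higher and 71 (0.39%) lower, and in all 125 the arrays of the groups did not overlap, which held for 9.92% of all genes (1805; 4.88% with the knockouts higher and 5.04% with them lower). Most differences were small: the median was 0.589 for the genes called higher and -0.58 for those called lower, and 17 genes differed by at least 1. At an unadjusted limma p under 0.05 there were 2436 genes (13.4%). The number of calls was 50, 249, 74 and 64 without knockout replicates 1 to 4 in turn and 57, 88 and 119 without wild-type replicates 1 to 3, and 31 genes were called in all 7 fits that each left out 1 array. With only the 7 arrays of both groups in the fit, 23 genes were called, 19 of them among the 125. That fit takes the spread from fewer arrays and without the other genotypes. Over genes, the median SD was 0.133 in the labelled E2f8 knockouts and 0.135 in wild type. It was lower in the E2f7 knockouts (0.112) and the double knockouts (0.114), which the main fit also used. The part of either in the lower count was not tested. The gene lists below hold 4 to 60 measured genes, so that a single called member exceeds the share over all genes and describes that gene and not its list. The medians of 18 of the 46 lists changed direction in at least 1 of the fits that left out an array, the largest of these being 0.21 with all arrays.

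**Figure D2:**
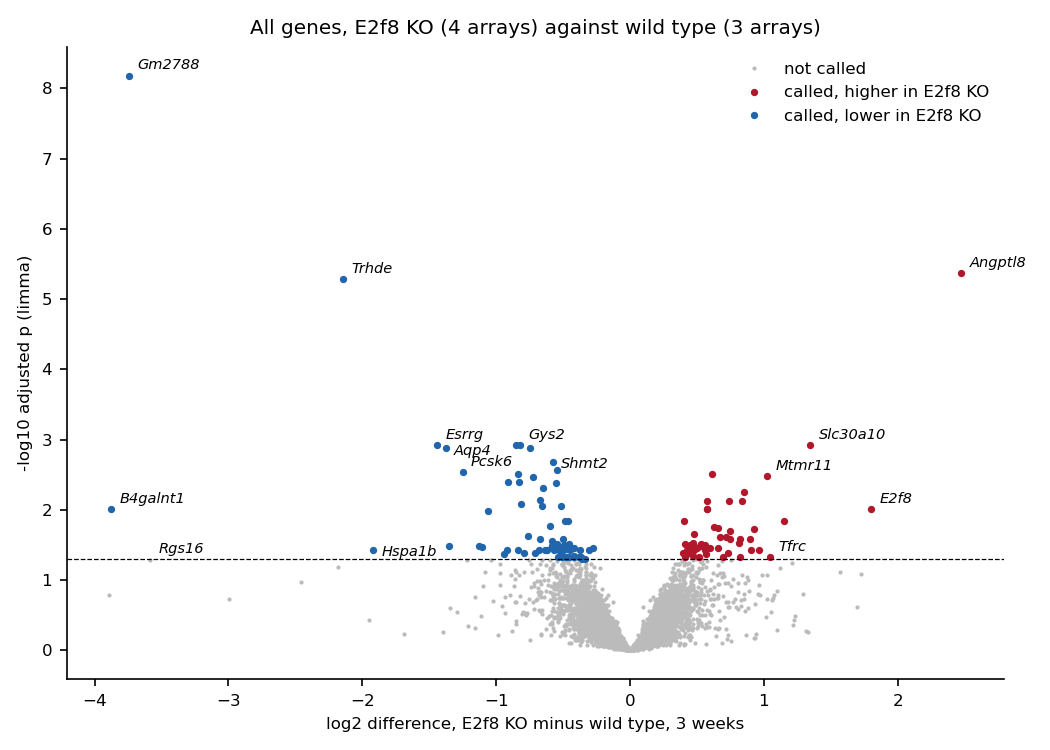
Log2 difference between the labelled E2f8 knockouts and wild type at 3 weeks (x axis) against -log10 of the limma adjusted p (y axis) for each of 18193 genes. The dashed line marks an adjusted p of 0.05, which 125 genes passed, and Gm2788, Angptl8 and Trhde stand farthest above it.

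The strongest rise was that of Angptl8, a liver hormone induced by insulin and feeding. Its signal was 10.12, 10.21, 10.09 and 10.20 in the labelled knockouts and 7.07, 8.03 and 7.93 in wild type. It rose by 2.48 (SE 0.19, limma adjusted p = 4.24e-06), a 5.56-fold higher signal, and the lowest knockout array was 2.06 above the highest wild-type array. Slc30a10, the transporter that exports manganese from hepatocytes, was at 9.21, 8.89, 8.70 and 8.48 against 7.39, 7.52 and 7.51. The groups were clear of each other, and it rose by 1.35 (SE 0.17, limma adjusted p = 0.00119). Calls of both genes held in all fits that left out 1 array.

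Tfrc, the transferrin receptor that brings iron into cells, was at 10.16, 9.82, 10.18 and 9.53 in the labelled knockouts and 8.64, 8.85 and 9.14 in wild type. It rose by 1.05 (SE 0.23), with a limma adjusted p of 0.0473 that no longer passed when knockout replicate 1, knockout replicate 3 or any of the 3 wild-type arrays was left out. Slc11a2, the iron transporter that works downstream of that receptor in the endosome, rose by 0.47 (limma adjusted p = 0.046), and this call was lost whichever array was left out. Hmox1, which breaks down heme, fell by 0.58 (limma adjusted p = 0.033). Its call held in 3 of the 7 fits that left out 1 array. Tfrc, Slc11a2 and Hmox1 were the 3 called members of a list of 23 measured heme and iron genes, whose median difference was -0.08. Over all genes the median was 0.00 and 50.4% of genes lay above 0. Of 20 metal transporters, Slc30a10 was the only gene called, and 10 lay above 0.

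Atf5, a transcription factor translated under stress, was at 11.30, 11.72, 11.66 and 11.60 against 10.22, 10.95 and 11.07, and rose by 0.82 (SE 0.16, limma adjusted p = 0.0262). Cbs, which starts the conversion of homocysteine to cysteine, was at 11.61, 11.91, 11.64 and 11.65 against 10.76, 10.91 and 11.30, a rise of 0.71 (SE 0.13, limma adjusted p = 0.024). In both genes wild-type replicate 1 was the lowest array, and neither call held without it. Tars, the threonyl-tRNA synthetase, rose by 0.75 (limma adjusted p = 0.0202), also not without wild-type replicate 1. Hal, which opens the breakdown of histidine, rose by 0.48 (limma adjusted p = 0.037), and Shmt2, the mitochondrial enzyme that passes one-carbon units from serine to folate, fell by 0.58 (limma adjusted p = 0.00209). The call of Hal was lost without knockout replicate 1 or 3 or any of the wild-type arrays, and that of Shmt2 held whichever array was left out.

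Of 31 measured genes of the ATF4 and amino acid response, 2 rose (Atf5 and Tars) and 1 fell (Shmt2), with 21 above 0 and a median of 0.13. Of 37 genes of the urea cycle and amino acid catabolism, 2 rose (Cbs and Hal), while 30 lay below 0 and the median was -0.11. None of 24 unfolded protein response genes was called by limma (11 at an unadjusted p under 0.05, 45.8% against 13.4% of all genes). In this list 19 lay above 0 and the median was 0.27. Its members with the larger differences were Creld2, a chaperone-like protein of the endoplasmic reticulum, at 1.07, and Sdf2l1, a partner of the chaperone BiP, at 0.88 (limma adjusted p = 0.091). The mean level of this list was 10.05 in wild-type replicate 1 and 10.36 to 10.59 in the 6 other arrays, and without that array the median was 0.14. Heat shock genes had a median of 0.02 over 20 members, of which 1 was called: the chaperone gene Hspa1b, at 7.22, 7.62, 7.43 and 7.13 against 9.18, 10.42 and 8.21, fell by 1.92 (SE 0.40, limma adjusted p = 0.037). The wild-type arrays differed widely among themselves, and the call was lost when any 1 of 5 arrays was left out, those being all but knockout replicate 2 and wild-type replicate 3.

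The remaining named rises came from several functions. Ccdc30, a coiled-coil protein, rose by 1.15 (limma adjusted p = 0.0143) and Mtmr11, of the myotubularin-related family, by 1.03 (limma adjusted p = 0.00328). Tjp3, a scaffold protein of tight junctions, rose by 0.96, and Itga5, the alpha chain of the fibronectin receptor, by 0.81. Tubb4b, a beta-tubulin, was at 10.45, 10.34, 10.16 and 10.14 against 8.92, 9.62 and 9.50 and rose by 0.93 (SE 0.17, limma adjusted p = 0.0189). Its groups did not overlap, but the call was lost without knockout replicate 1 or wild-type replicate 1. Ifit1, an antiviral protein induced by interferon, rose by 0.91 (limma adjusted p = 0.037) as the only called gene of 29 interferon response genes, of which 17 lay above 0 with a median of 0.10. Sdr9c7, a short-chain dehydrogenase, rose by 0.90, Tspyl4, of the nucleosome assembly family, by 0.85, Ccdc25 by 0.84 and Erdr1 by 0.82. Of the genes in this paragraph, Mtmr11, Tspyl4 and Ccdc25 stayed called whichever array was left out, and each of the others lost its call without at least 1 array. Mtmr11, Ccdc30 and Ccdc25 were among the dimmest 40% of genes, and whether their signals lay above background is not known. When all probe sets of a gene were averaged, the differences of Tspyl4 (0.41), Tubb4b (0.28), Erdr1 (0.25) and Ccdc30 (0.32) were less than the values above by over 1.5 times. These genes were no longer called, with limma adjusted p from 0.0574 to 0.404, and Tjp3 and Ifit1 lost their calls at 0.0505. The averaged differences of Mtmr11 (0.54) and Itga5 (0.51) were also smaller, and both stayed called (limma adjusted p = 0.0292 for each).

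The largest fall was that of B4galnt1, the enzyme that makes the gangliosides GM2 and GD2. Its signal was 7.99, 4.05, 3.88 and 4.58 in knockout replicates 1 to 4 and 8.68, 8.91 and 9.41 in wild type. Knockout replicate 1 was thus 0.69 below the lowest wild-type array and the other 3 knockout arrays were far lower. The gene fell by 3.88 (SE 0.65, limma adjusted p = 0.00984), and by 4.83 without knockout replicate 1. With only the arrays of the 2 groups in the fit it was not called (limma adjusted p = 0.121). With all its probe sets averaged it differed by -2.12 (limma adjusted p = 0.0204). St3gal1, a sialyltransferase, rose by 0.50 (limma adjusted p = 0.0351), a call that held in 3 of 7 fits leaving out 1 array. No other of 25 measured genes for gangliosides and glycosphingolipids was called. The median of this list was -0.03.

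Trhde, the cell-surface peptidase that degrades thyrotropin-releasing hormone, was at 2.70, 2.27, 2.32 and 2.37 in the labelled knockouts and 4.76, 4.90 and 4.02 in wild type. It fell by 2.14 (SE 0.17, limma adjusted p = 5.15e-06), a 4.42-fold lower signal with a gap of 1.32 between the nearest arrays of the groups. The probe set was among the dimmest 40% of genes, and whether its knockout signal lay above background is not known, so this fold is that of the signals alone. It was the only gene called of 15 of the thyroid hormone axis, whose median was -0.09. Pcsk6, the convertase PACE4 that activates secreted precursors, was at 7.50, 7.94, 7.70 and 7.53 against 9.05, 9.22 and 8.48. The groups did not overlap, and it fell by 1.25 (SE 0.18, limma adjusted p = 0.00291). Both calls held whichever array was left out.

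Regulators and receptors were among the other falls. Esrrg, an orphan nuclear receptor of energy metabolism, was at 4.72, 5.30, 4.82 and 4.32 against 6.08, 6.25 and 6.36 and fell by 1.44 (SE 0.18, limma adjusted p = 0.00119). Aqp4, a water channel, was at 5.28, 5.24, 5.16 and 5.23 against 6.15, 7.07 and 6.59 and fell by 1.38 (SE 0.18, limma adjusted p = 0.00134). Tgfbr2, the type II receptor of transforming growth factor beta, was at 7.77, 7.60, 7.61 and 7.31 against 8.36, 8.43 and 8.47 and fell by 0.85 (SE 0.11, limma adjusted p = 0.00119). In these 3 genes, as in all 125 called, the arrays of the groups did not overlap. The calls of these 3 held whichever array was left out. Tox, a nuclear protein of the HMG-box family, fell by 1.10 (limma adjusted p = 0.0342). Adamdec1, a metalloprotease-like protein, fell by 1.06 (limma adjusted p = 0.0104) and Tenm3, a teneurin of the cell surface, by 0.94 (limma adjusted p = 0.0431). Of the 7 fits that each left out 1 array, Tox kept its call in 3, Adamdec1 in 6 and Tenm3 in 1. The probe set of Tox was among the dimmest 40% of genes. Dclre1a, a nuclease that repairs interstrand crosslinks, fell by 0.92 (limma adjusted p = 0.037), while in a list of 25 other measured genes of DNA damage response and repair 13 lay above 0 with none called by limma (5 at an unadjusted p under 0.05). With all probe sets of a gene averaged, Esrrg differed by -0.39 (limma adjusted p = 0.173), Dclre1a by -0.37 (0.204), Tgfbr2 by -0.40 (0.0501), Tox by -0.67 (0.0838) and Tenm3 by -0.84 (0.0613), and none of these was called. Aqp4 stayed called with a smaller averaged difference of -0.82 (limma adjusted p = 0.0395).

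Gys2, the liver glycogen synthase, was at 9.47, 9.59, 9.51 and 9.46 against 10.38, 10.33 and 10.28, with little spread in either group. It fell by 0.82 (SE 0.10, limma adjusted p = 0.00119) and was the only gene called of 20 of glycolysis and glycogen, whose median was -0.04. Sult1d1, a sulfotransferase, fell by 1.13 (limma adjusted p = 0.0324), a call that held in 2 of 7 fits leaving out 1 array. It was the only call among 40 genes of xenobiotic metabolism, of which 32 lay below 0 with a median of -0.15. Abcb1a, an efflux pump for drugs and bile components, fell by 0.91 (limma adjusted p = 0.00407), and Akr1c14, a reductase of steroids, by 0.65 (limma adjusted p = 0.00494). These were the 2 called genes of 30 of bile acid synthesis and transport, with 22 below 0 and a median of -0.19. Serpina6, which carries corticosteroids in plasma, fell by 0.46 (limma adjusted p = 0.0143), 1 of 35 genes of secreted plasma proteins, whose median was -0.01. The call of Serpina6 was lost without wild-type replicate 2.

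Genes that respond to insulin and fasting were mostly not called. Of 27 lipogenesis genes induced by insulin, Angptl8 was the only gene called, and 15 lay above 0 with a median of 0.12. That median was -0.18 without wild-type replicate 3, so the direction of this list rested on that array. Of 29 genes of fasting, gluconeogenesis and FOXO, 24 lay below 0, with a median of -0.26 (-0.22 without wild-type replicate 3). None of the 29 was called by limma (6 at an unadjusted p under 0.05, 20.7% against 13.4% of all genes). Among them, Igfbp1, a binding protein of insulin-like growth factors that insulin represses, was at 8.92, 9.56, 9.17 and 9.15 against 12.85, 9.74 and 11.56. Its groups did not overlap, but the wild-type arrays lay farther apart than the difference of -2.18 (limma adjusted p = 0.064). Rgs16, a regulator of G-protein signalling singled out after its values were seen, was at 4.99, 5.78, 5.77 and 5.78 against 10.72, 6.67 and 10.10 and differed by -3.58 (limma adjusted p = 0.051).

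Of 22 genes higher in male than female liver, 17 lay above 0 with a median of 0.21, which was -0.01 without wild-type replicate 3, and the 21 female-biased genes had a median of -0.12. Of 17 hepatocyte transcription factors, 15 lay above 0, with a median of 0.13. Many of these values rested on 1 array: the medians were 0.14 for ChREBP targets (0.00 without wild-type replicate 3), -0.04 for cholesterol synthesis (0.06 without knockout replicate 2), -0.07 for PPAR alpha targets (0.01 without knockout replicate 2), -0.04 for oxidative phosphorylation and -0.03 for the acute phase. They were -0.10 for pericentral and 0.00 for periportal genes, -0.09 for fetal and juvenile genes, -0.12 for immediate early genes and -0.17 for angiogenesis (-0.07 without wild-type replicate 3). CDK inhibitors and p53 targets had a median of -0.09, MHC class II genes of -0.20 and the sex-linked control genes of -0.05. Of all these lists, the periportal genes held the 1 called member, Hal.

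Of 28 genes of the circadian clock and its output, 9 lay above 0 with a median of -0.11, and Per3, a clock repressor, was the only gene called. It was at 6.17, 6.61, 7.31 and 7.54 in knockout replicates 1 to 4 and 8.42, 8.65 and 7.71 in wild type, and fell by 1.35 (SE 0.27, limma adjusted p = 0.0324). This call did not survive the removal of knockout replicate 1, nor that of wild-type replicate 1 or 2. The labelled knockouts were not alike in other clock genes. Nr1d2, a repressor of the clock loop, was at 7.74, 7.49, 10.04 and 10.08 in knockout replicates 1 to 4 and 10.03 to 10.37 in wild type, so that replicates 3 and 4 read as wild type did. Arntl, the clock's activator, showed the opposite order, at 8.56, 8.36, 7.20 and 7.07 against 6.82, 5.66 and 7.75. The part of this split in the fall of Per3 was not tested, and the labels give no time of day.

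Genes of the cell cycle are the classical targets of the E2F family, and those on the lists were not called at this age. None of 50 measured genes of DNA replication and G1/S passed the limma test (5 at an unadjusted p under 0.05): 30 lay above 0 and the median was 0.06. The larger differences were those of Pclaf, a partner of the replication clamp, at 0.99 (SE 0.25, limma adjusted p = 0.08) and Rrm2, a subunit of ribonucleotide reductase, at 0.96 (limma adjusted p = 0.12). Of 60 genes of mitosis and cytokinesis, none was called, 50 lay above 0 and the median was 0.21. Here 10 (16.7%) passed an unadjusted limma p under 0.05, against 13.4% of all genes. Mki67, the proliferation marker, differed by 0.57 and Aurka, a mitotic kinase, by 0.51. Wild-type replicate 3 held the lowest mean level of the mitosis list, at 5.51 against 5.77 to 6.15 in the other 6 arrays. Without it, the medians were -0.08 for replication, with 18 of 50 above 0, and 0.04 for mitosis, with 37 of 60 above 0. The direction of the replication list therefore rested on 1 wild-type array. Outside these lists, and singled out after their values were seen, Ccnf, a cyclin that directs protein degradation in G2, rose by 0.74 (limma adjusted p = 0.0262) and Cdk6, a kinase of G1, fell by 0.52 (limma adjusted p = 0.0363).

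**Figure D3:**
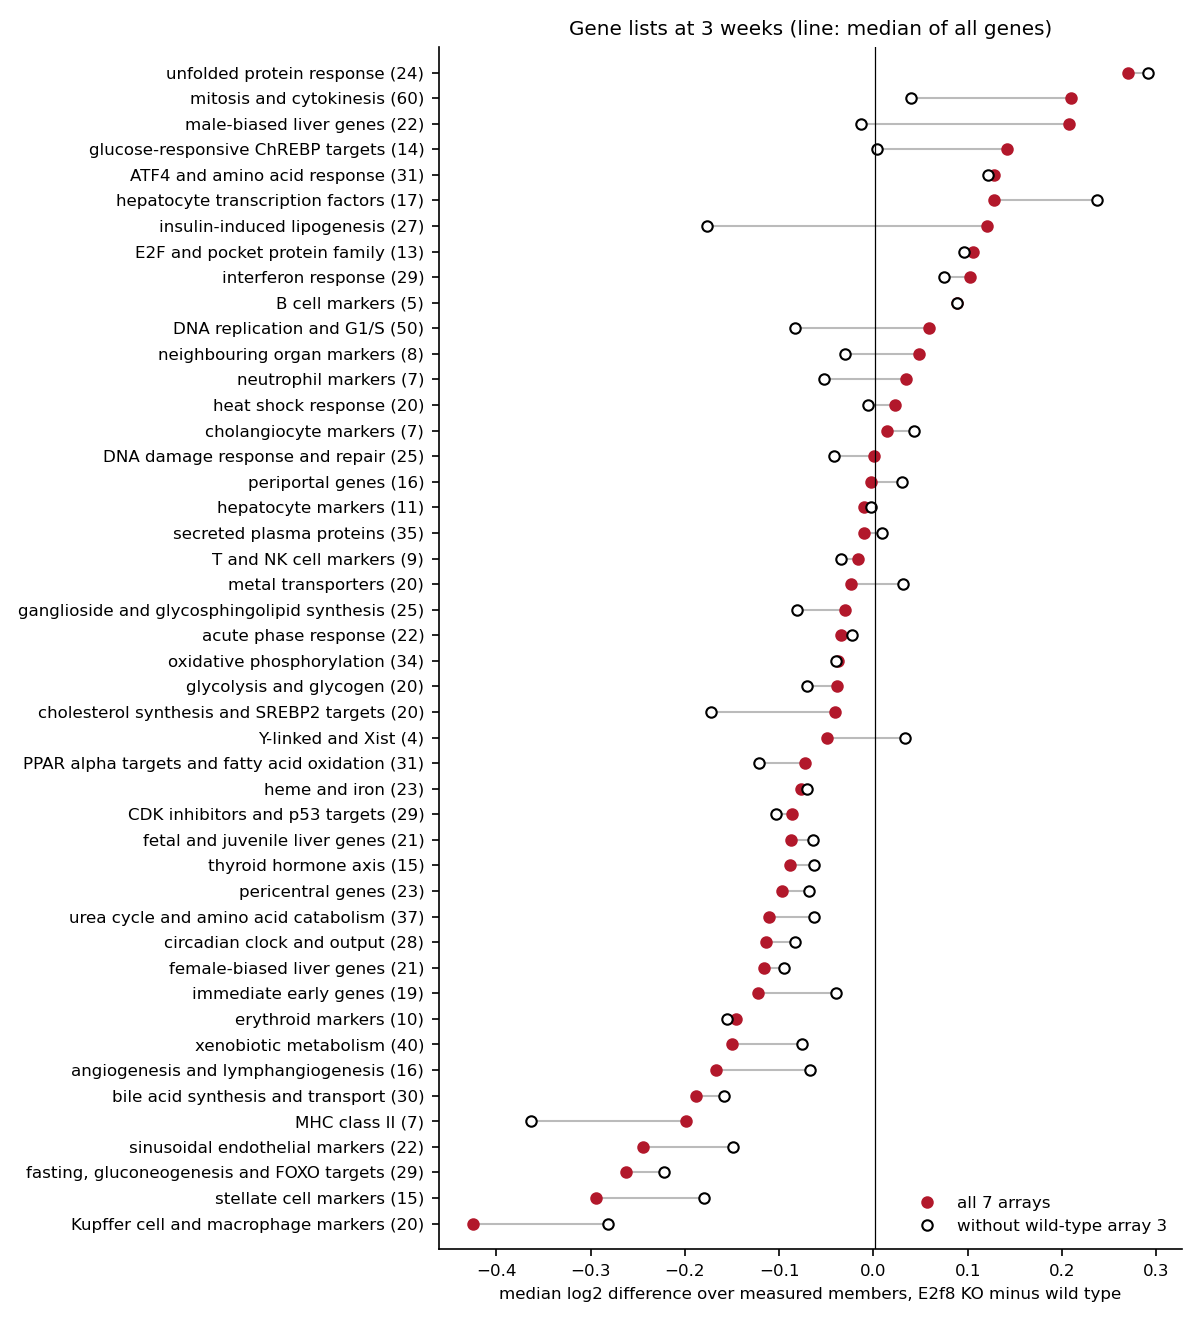
Median log2 difference between the labelled E2f8 knockouts and wild type at 3 weeks (x axis) over the measured members of each gene list (y axis, with the number measured), with all 7 arrays (filled) and without wild-type replicate 3 (open), and a vertical line at the median of all genes. With all arrays, Kupffer cell markers have the lowest median, at -0.42, and the unfolded protein response the highest, at 0.27.

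Albumin-Cre acts in hepatocytes, and markers of several other liver cell types lay lower in the labelled knockouts. All 20 markers of Kupffer cells and macrophages lay below 0, with a median of -0.42, but none was called by limma (10 at an unadjusted p under 0.05). Marco, a scavenger receptor, differed by -0.86, Cd5l, a secreted macrophage protein, by -0.69, and Aif1, a macrophage marker, by -0.60 (limma adjusted p = 0.051), while Clec4f, a defining Kupffer cell receptor, differed by -0.01. The mean level of the list was 7.13, 7.30, 6.90 and 6.62 in knockout replicates 1 to 4 and 7.19, 7.32 and 7.67 in wild type, so the groups overlapped. On a summed scale (log2 of the added signals) the range was 11.76 to 12.59 in the labelled knockouts and 12.46 to 12.90 in wild type. Without wild-type replicate 3, which was highest, the median was -0.28 and 3 of 20 lay above 0; without wild-type replicate 1 the median was -0.58. In whole liver, fewer cells of a type and less RNA per cell cannot be told apart.

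The 22 markers of sinusoidal endothelium also all lay below 0, with a median of -0.24 (-0.15 and 3 above 0 without wild-type replicate 3), and of 15 stellate cell markers 12 did, with a median of -0.29 (-0.18 without wild-type replicate 3). None of either list was called by limma (9 and 6 at an unadjusted p under 0.05). The mean level of the endothelial list was 7.68, 7.98, 7.51 and 7.38 in the labelled knockouts and 7.81, 7.83 and 8.17 in wild type. Of 10 erythroid markers, 9 lay below 0 with a median of -0.15, and Tfrc, which other cells also express, was the 1 above. Hepatocyte markers lay on both sides of 0, with 5 of 11 above it and a median of -0.01. Markers of T and NK cells, B cells, neutrophils, cholangiocytes and neighbouring organs had medians of -0.02, 0.09, 0.03, 0.01 and 0.05. The part of these marker levels in the results for other genes was not tested.

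**Figure D4:**
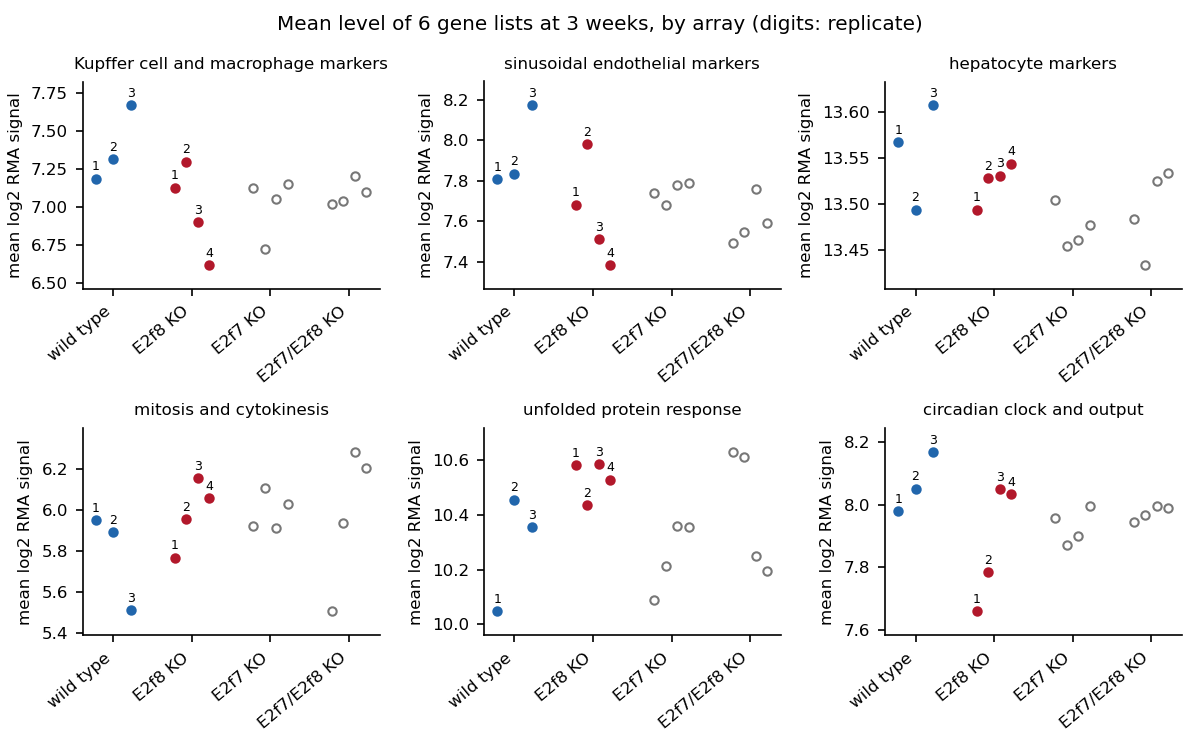
Mean log2 RMA signal (y axis) of the measured members of 6 gene lists on each array at 3 weeks, by labelled genotype (x axis), with replicate numbers beside wild-type and E2f8 knockout points. Wild-type replicate 3 is highest for Kupffer cell markers, at 7.67, and the lowest of the 7 compared arrays for mitosis, at 5.51, and knockout replicates 1 and 2 are lowest for the clock, at 7.66 and 7.78.

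The other knockouts of the same age were compared with the labelled E2f8 knockouts directly, without the wild-type arrays. Against the E2f7 knockouts, 137 genes (0.753%) differed at a limma adjusted p under 0.05, and against the E2f7/E2f8 double knockouts 41 (0.225%). Of the 125 genes called against wild type, 56 also differed from the E2f7 knockouts (23 higher and 33 lower) and 24 from the double knockouts (10 higher and 14 lower), with 23 differing from both. The count of 137 moved by over 1.5 times whichever of the 8 arrays was left out, from 41 without E2f8 knockout replicate 3 to 230 without replicate 2. The count of 41 was 7 to 19 without replicate 1, 3 or 4 of the E2f8 knockouts or replicate 1, 2 or 3 of the double knockouts. These comparisons share the E2f8 knockout arrays, and the differences of the other genotypes from wild type share the wild-type arrays, so they are not independent of the choice of genes.

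Set beside each other, the genotypes ordered differently by gene. Angptl8 was at 7.39 to 7.81 in the E2f7 knockouts, at 8.83 to 9.54 in the double knockouts and at 10.09 to 10.21 in the labelled E2f8 knockouts. The last group was above both others (limma adjusted p = 1e-06 and 0.026). Slc30a10 was at 7.35 to 7.96 in the E2f7 knockouts and 7.51 to 8.08 in the double knockouts, below every labelled E2f8 knockout array (limma adjusted p = 0.0042 and 0.011). B4galnt1 was at 8.26 to 9.0 and 8.73 to 9.07 in these groups, and Trhde at 4.36 to 4.93 and 4.48 to 4.70. Both genes were thus near wild type in the double knockouts although those carry the same floxed E2f8, and both differed from the labelled E2f8 knockouts (limma adjusted p = 0.01 and 0.018 for B4galnt1, 1.2e-06 and 3.6e-06 for Trhde).

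Gys2 differed from wild type by -0.23 in the E2f7 knockouts and by -0.08 in the double knockouts, and all 8 of these arrays lay above every labelled E2f8 knockout array (limma adjusted p = 0.0088 and 0.003). Pcsk6 was intermediate in the double knockouts, at 8.20 to 8.78, and at 8.90 to 9.33 in the E2f7 knockouts. It differed from the E2f7 knockouts (limma adjusted p = 0.00065) but not from the double knockouts at the threshold (limma adjusted p = 0.056, a difference of -0.80). Akr1c14 gave like values in all 3 genotypes, with differences from wild type of -0.65, -0.67 and -0.56 for the E2f8, E2f7 and double knockouts. For Tfrc these were 1.05, -0.05 and 0.56. Over the genes called higher, the median difference from wild type was 0.286 in the double knockouts and 0.195 in the E2f7 knockouts, and over those called lower -0.294 and -0.142.

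The arrays at 2 months gave a separate measurement of E2f8 loss. Wild-type replicates 4 and 5 lay in another normalization run, for which the fit held a term. Each difference at 2 months was thus taken from wild-type replicates 1 to 3, and replicates 4 and 5 entered the spread only. At that age 44 genes (0.242%) were called at a limma adjusted p under 0.05, and 6 of them were among the 125 called at 3 weeks, which is 4.8% of the genes called at 3 weeks and 13.6% of those called at 2 months. With only the arrays of the first normalization run, an alternative chosen after seeing the data, 111 genes were called. The count of 44 was 9, 20 and 2 without knockout replicates 1, 2 and 4, and 4, 3 and 94 without wild-type replicates 1 to 3. The 6 genes were E2f8, Gm2788, B4galnt1, Trhde, Pcsk6 and Yae1d1, a factor of iron-sulfur protein assembly, each with the same direction at both ages. Yae1d1 was singled out after its values were seen and rose by 0.57 at 3 weeks. Of the 54 genes called higher at 3 weeks, 40 (74.1%) lay above 0 at 2 months, against 53.1% of all genes. Of the 71 called lower, 34 (47.9%) lay below 0, against 46.9% of all genes. The genes called lower thus kept their direction at 2 months about as often as any gene, with a median of 0.002, and those called higher had a median of 0.13 there.

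Among the genes shared by both ages, E2f8 was higher by 2.20 (SE 0.35) at 2 months and Gm2788 fell by 3.32 (SE 0.52; limma adjusted p = 0.022 for each). B4galnt1 was at 8.50, 5.26, 4.68 and 5.40 in the labelled knockouts at 2 months and at 9.37, 9.64, 9.28, 9.11 and 9.14 in wild type. It fell by 3.47 (SE 0.59, limma adjusted p = 0.022) from the first 3 of these wild-type arrays. As at 3 weeks, 3 knockout arrays were far below wild type and 1 was near it. Trhde was at 4.33, 4.24, 4.49 and 4.40 in the labelled knockouts against 6.01, 5.83 and 6.08 in the wild-type arrays of the same normalization run, and fell by 1.61 (SE 0.22, limma adjusted p = 0.0054). The other 2 wild-type arrays, which belonged to another run, read 3.02 and 4.50, and the fit held a term for the run. Pcsk6 was at 8.76, 8.71, 8.24 and 8.73 against 9.37, 9.25, 9.73, 9.83 and 10.08. It fell by 0.84 (limma adjusted p = 0.045) from the first 3 of these wild-type arrays.

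**Figure D5:**
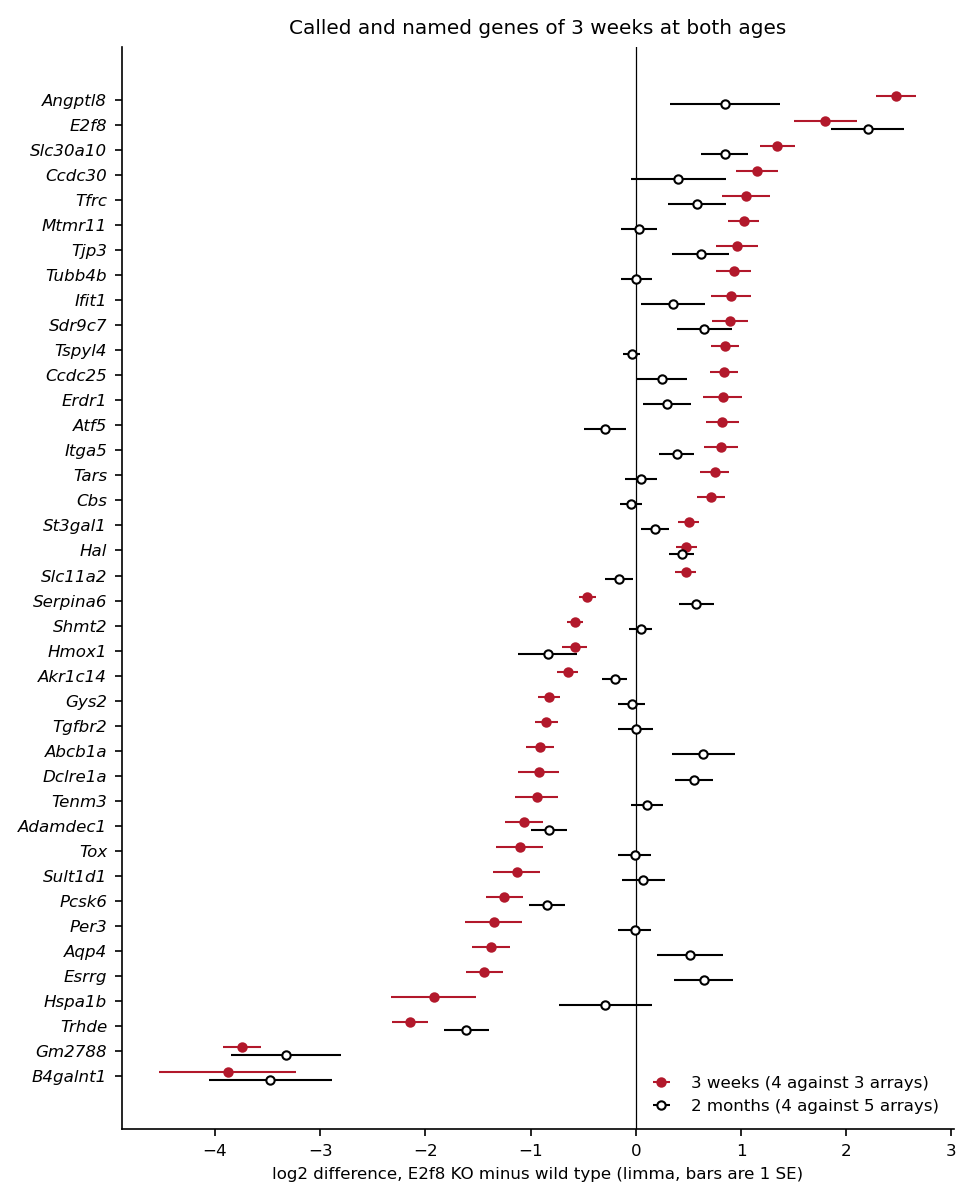
Log2 difference between the labelled E2f8 knockouts and wild type (x axis) for the called and named genes of 3 weeks (y axis) at 3 weeks and 2 months, with bars of 1 SE from the limma fits. B4galnt1, Gm2788, Trhde and E2f8 are far from 0 at both ages, while Gys2, at -0.82 and -0.04, and Tgfbr2, at -0.85 and 0.00, are not.

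The difference between the ages was tested itself, and 78 genes (0.429%) had an E2f8 effect that differed between 3 weeks and 2 months at a limma adjusted p under 0.05. Age and normalization run cannot be told apart in levels, and each effect was taken within its own age. Of the 125 genes called at 3 weeks, 31 differed, 25 of them called lower and 6 called higher. The 125 were chosen on the same arrays of 3 weeks that this test uses, so their share is not independent of that choice. The same holds for the genes named next. Esrrg fell by 1.44 at 3 weeks and differed by 0.65 at 2 months, and Aqp4 by 1.38 and 0.52 in the same way (limma adjusted p = 0.014 and 0.025 for the difference between ages). At 2 months the arrays overlapped in both genes. Esrrg was at 6.59, 6.91, 7.08 and 6.70 against 5.67, 5.88 and 6.97 in wild-type replicates 1 to 3. Aqp4 was at 6.84, 5.53, 6.28 and 5.78 against 5.46, 5.15 and 6.17. Wild-type replicates 4 and 5, of the other run, read 5.67 and 5.91 for Esrrg and 7.15 and 6.77 for Aqp4. Gys2 fell at 3 weeks but differed by -0.04 at 2 months (limma adjusted p = 0.034). Tspyl4 and Cbs rose at 3 weeks and differed by -0.04 and -0.05 at 2 months (limma adjusted p = 0.014 and 0.043). Angptl8 differed by 0.85 at 2 months (SE 0.52, limma adjusted p = 0.78), and its effect was not shown to differ between ages (a difference of 1.63, limma adjusted p = 0.30). No age difference was called by limma when wild-type replicate 2 of 2 months was left out (1711 at an unadjusted p under 0.05), and 17 to 47 were called when any knockout array or wild-type replicate 1 of 2 months, or knockout replicate 1 or 4 or wild-type replicate 2 of 3 weeks, was left out.

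Lists were followed to 2 months in both directions. The unfolded protein response, which had the highest median at 3 weeks (0.27), had a median of -0.22 at 2 months, with 23 of 24 members below 0. Of 40 genes of xenobiotic metabolism, 32 lay below 0 at 3 weeks and 32 above 0 at 2 months, where the median was 0.26. Kupffer cell markers had a median of -0.60 at 2 months, with 19 of 20 below 0. Of these, 3 fell, where 0.242% of all genes were called: Cd5l, C1qb, a complement subunit made by macrophages, and Csf1r, the receptor that macrophages need to survive. The mean level of the Kupffer list was 7.57 to 7.96 in the labelled knockouts and 8.51, 8.29, 8.18, 7.78 and 8.11 in wild-type replicates 1 to 5. The mean level of acute phase genes was 12.18, 12.03 and 11.79 in wild-type replicates 1, 2 and 5 and 10.61 to 10.72 in the other 2 wild types and all labelled knockouts, and neutrophil markers were also highest in those 3 arrays. Wild-type replicate 3, which had low acute phase levels and the same normalization run as the knockouts, was above all labelled knockouts in Kupffer markers. Wild-type replicate 4, also low in acute phase levels but of another run, lay within the range of the labelled knockouts at 7.78. The part of the acute phase arrays in the results at 2 months was not tested.

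The called genes were placed in the order of measured genes along each chromosome, because several of those with large differences lie near each other. Chromosome 10 held 12 called genes of 865 measured (1.39%), the highest share of any chromosome with at least 1 call, against 0.687% of all genes. Chromosome 19 was close to it at 1.31%, and chromosome 15 held 1.1%. On the distal part of chromosome 10, Trhde, Rassf3, B4galnt1, Shmt2 and Sdr9c7 followed in that order, with 53, 27, 16 and 14 measured genes between neighbours. Of these, Rassf3, a RAS-association protein named for its place and not by the rule, fell by 0.84 (limma adjusted p = 0.00304). Chromosome 7 held 11 called genes of 1420 measured (0.775%), near the share over all genes. On it, E2f8 and Gm2788 were adjacent in this order, Pcsk6 followed after 52 measured genes, and Chsy1, a chondroitin synthase also named for its place, after 2 more. Chsy1 fell by 0.62 (limma adjusted p = 0.037) and differed by -0.66 at 2 months. The 85 called genes that the naming rule did not take were 34 higher, by 0.39 to 0.74, and 51 lower, by -0.84 to -0.27.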

How the data were processed

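The deposited values are log2 signals per probe set. The authors used RMA, per the submitters' processing notes (robust multi-array averaging, no version given). RNA was extracted with Trizol, and 2.5 µg of total RNA was labelled, per the labels' protocols. Of 45101 probe sets, 64 controls were left out, 34945 carried 1 gene symbol, 932 several and 9160 none. Where several probe sets had the same single symbol, the brightest on average over 35 arrays was kept, which gave 18193 genes. By Entrez identifier, 34741 probe sets matched the reference table and 0 symbols changed. The sorted values fell into 3 normalization runs, which were found from the values alone. All 15 arrays at 3 weeks shared a run, and wild-type replicates 4 and 5 of 2 months lay in another run than the E2f8 knockouts of that age, for which the fit held a term. With this term, the differences at 2 months were those from wild-type replicates 1 to 3.

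Groups were fitted with limma 3.58.1 (R 4.3.3; lmFit and eBayes with an intensity trend) on the 15 arrays of 3 weeks, with 11 residual degrees of freedom, and p-values were adjusted over all genes by Benjamini-Hochberg. A gene was called at an adjusted p under 0.05. Named were E2f1 to E2f8, the 15 called genes that rose most and the 15 that fell most without overlap of the groups, up to 4 called members of each of 46 gene lists, and Gm2788, with clone and predicted names left out. Uncalled genes given as examples, and the few called genes outside this rule, were picked after their values were seen. The members and lists were chosen with earlier results of these data known. Alternatives were all 35 arrays or only the 2 groups in the fit, array weights, no intensity trend, averaging all probe sets per gene, quantile normalization, leaving out the dimmest 40% of genes, a replicate block, and each array left out in turn. On simulated data for the comparison at 3 weeks over 18193 genes, 29 of 50 genes changed by 0.5 were recovered and 50 of 50 at each of 1, 2 and 4, with 10 false calls. The simulated noise was normal and independent between arrays, with the same SD in every group for each gene. Genes whose arrays split or hold an outlying array were not simulated, so this recovery does not cover them. In the data, Igfbp1 (-2.18) and Rgs16 (-3.58) were not called. Tables and plots were made with Python 3.11.15, numpy 2.4.6, pandas 2.3.3 and matplotlib 3.10.9. The precision is limited by the number of arrays.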

Additional observations from a re-analysis of the deposited data

Results flagged for a closer look

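The 4 labelled E2f8 knockout arrays of each age, and not the wild-type arrays, were tested for a sample far from the others. In 94 such tests 8 were marked, and chance marks about 1 in 20. At 3 weeks these were B4galnt1 in knockout replicate 1 (7.988, above the other 3), Tspyl4 in knockout replicate 4 (5.673), Sult1d1 in knockout replicate 2 (10.196) and Cbs in knockout replicate 2 (11.91). At 2 months they were Pcsk6 (8.242), Tars (9.486) and Slc11a2 (7.78) in knockout replicate 3 and Dclre1a in knockout replicate 4 (9.918).

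For 9 named genes the effect of E2f8 genotype differed between the ages by a test of the difference itself (limma adjusted p under 0.05). These genes were named from calls at 3 weeks, whose arrays this test also uses. The effect at 3 weeks minus that at 2 months was 0.89 for Tspyl4, 0.76 for Cbs, -2.09 for Esrrg, -1.89 for Aqp4, -1.55 for Abcb1a, -1.47 for Dclre1a, -1.04 for Serpina6, -0.78 for Gys2 and -0.62 for Shmt2.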

How the results depend on the processing

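The number of genes called between labelled E2f8 knockouts and wild type at 3 weeks, 125, was 347 with all 35 arrays in the fit, 79 with averaged probe sets per gene and 23 with only the 2 groups, and 50 to 249 when 1 array was left out. Of the 125, 43.2% were higher, which was 63.0% of 119 without wild-type replicate 3 and 31.9% of 135 with array weights. Against the E2f7 knockouts, 137 became 349, 532 and 235 with 35 arrays, array weights and only the 2 groups, and 41 to 230 when 1 array was left out. Against the double knockouts, 41 became 126, 80 and 22 under the same settings, and 7 to 57. At 2 months, 44 became 111 with only the first run and 2 to 94 when 1 array was left out. The 78 age differences became 0 to 95.

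Same-numbered arrays did not vary together (r of their deviations 0.0225, -0.2882 and -0.0816), so the numbers give no pairing. With replicate number as a block, 113 genes were called at 3 weeks, 81 of them among the 125, and 113, 35 and 20 in the comparisons with E2f7 knockouts, double knockouts and at 2 months.

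Of the 40 called and named genes, 17 kept their call whichever array was left out, 35 with all 35 arrays and 13 with only the 2 groups, and 16 lost it with averaged probe sets. Besides the 11 given beside their values, these were Tfrc (0.82), Slc11a2 (0.26), St3gal1 (0.54), Per3 (-0.97) and Sult1d1 (-1.14). None of the named and called genes changed direction under any alternative run.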
